A study of Mus musculus with 12 samples.

Results

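Cholesterol synthesis genes were followed through the neural differentiation of mouse embryonic stem (ES) cells in 2 cell lines. The 8 genes are Hmgcs1, Idi1, Fdft1, Sqle, Lss, Cyp51, Dhcr7 and Insig1, and every probe set whose only gene symbol in the platform annotation was one of these was taken. This gave 20 of the 45037 probe sets tested: 5 for Hmgcs1, 4 for Fdft1, 3 for Lss, 3 for Cyp51, 2 for Idi1 and 1 each for Sqle, Insig1 and Dhcr7. RNA was measured on 12 Affymetrix arrays in 6 groups of 2. The rtTA-Dmrt5 line carries a doxycycline (Dox) inducible Dmrt5, a transcription factor whose gene is now named Dmrta2, and the rtTA line is its parent, with only the rtTA activator by its name. Both were differentiated as a monolayer in N2B27, a serum-free medium that lets ES cells take neural fates. The groups were rtTA at day 7 labelled -Dox or +Dox, rtTA-Dmrt5 at day 7 labelled -Dox or +Dox, and rtTA-Dmrt5 at day 9 labelled -Dox or +Dox, with Dox given from day 5. The parental line was measured at day 7, so its Dox response can be set beside that of rtTA-Dmrt5 on that day. The labels name no second clone of either line. They do not state whether the arrays of a group came from different cultures, and the spread behind each p-value may be technical.

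Cells build cholesterol from acetyl-CoA through the mevalonate pathway, in which mevalonate is made, turned into isoprenoids and joined into squalene. Squalene is then closed into lanosterol, the first sterol, which is trimmed to cholesterol. The SREBP transcription factors raise these genes together when sterol in the endoplasmic reticulum falls, and INSIG proteins hold SREBP and its escort SCAP there when sterol is plentiful. Neural tissue makes much of its own sterol, for growing membranes and for Hedgehog signalling.

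Promoters are shown for Idi1, Lss and Cyp51, whose probe sets held the largest differences between the lines, and for Hmgcs1, the member whose window held the sterol element. They are RefSeq sequences on GRCm38.p6, printed 5′ to 3′ on the strand of the gene, 150 bases each. Their positions are chr13:119690201-119690350 on the + strand for Hmgcs1, chr13:8885456-8885605 on the + strand for Idi1, chr10:76531415-76531564 on the + strand for Lss and chr5:4104698-4104847 on the - strand for Cyp51. The windows of Hmgcs1, Idi1 and Cyp51 end at the base before the start site, and the window of Lss ends upstream of it. Capitals mark matches on either strand to a sterol element, TCACNCCAC, and to the NF-Y box, CCAAT, which reads ATTGG on the other strand.
Hmgcs1: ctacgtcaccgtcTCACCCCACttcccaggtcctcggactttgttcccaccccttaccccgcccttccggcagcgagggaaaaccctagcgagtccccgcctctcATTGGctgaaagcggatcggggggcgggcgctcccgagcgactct
Idi1: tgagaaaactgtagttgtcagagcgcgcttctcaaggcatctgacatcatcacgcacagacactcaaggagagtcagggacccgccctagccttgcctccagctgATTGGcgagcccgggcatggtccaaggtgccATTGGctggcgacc
Lss: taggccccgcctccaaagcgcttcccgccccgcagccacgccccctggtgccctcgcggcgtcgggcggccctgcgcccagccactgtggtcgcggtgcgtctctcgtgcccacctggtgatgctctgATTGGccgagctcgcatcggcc
Cyp51: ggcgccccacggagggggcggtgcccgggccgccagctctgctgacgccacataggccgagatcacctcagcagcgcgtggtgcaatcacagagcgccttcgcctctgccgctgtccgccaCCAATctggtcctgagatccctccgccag

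The table held promoters of 6 of the 8 members, all but Fdft1 and Sqle, and the search covered up to 250 bases before each start. TCACNCCAC was found before Hmgcs1, at position -137 from the start, and 1.05% of 32851 promoters held it. CCAAT was found 3 times before Hmgcs1, 1 of them in the stretch printed, 2 times before Idi1, at -14 and -45, and once each before Lss at -62, Cyp51 at -29 and Insig1 at -216. Of all promoters, 33.8% held CCAAT. In Dhcr7 it was found 2 times, before the third of its annotated starts. The motifs did not overlap each other. A match describes letters, and no match says only that these letters are not in this window.

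The deposited values are taken as log2 and are centred, so that each probe set has a median of 0 over the 12 arrays. They show differences between arrays and not the level itself, and members cannot be ranked by abundance. Changes are differences between group means ± standard error (SE), with n = 2 arrays a group, tested with limma over all 45037 probe sets; a probe set is called where its adjusted p is under 0.05. The spacing of the centred numbers still gives a coarse class of each probe set's median signal, and by it 15 of the 20 probe sets had a median log2 signal of at least 8. Of the others, 3 lay between 4 and 8 (Hmgcs1 1441536_at, Cyp51 1422533_at and Cyp51 1422534_at) and 2 between 2 and 4 (Fdft1 1438918_at and Fdft1 1438919_x_at). The probe set of Dmrta2, the induced gene, was lower by 2.42 ± 0.33 on the log2 scale in the rtTA-Dmrt5 arrays labelled +Dox at day 7 (adjusted p = 0.00318). At day 9 its change was -2.61 ± 0.33 (adjusted p = 0.000823). It is not known whether this probe set reads the introduced Dmrt5 or only the cells' own gene. The falls therefore cannot show whether induction worked, and each Dox direction given here rests on the labels. Without Dox at day 7 the probe set stood at 1.91 and 1.85 in rtTA-Dmrt5 and at -0.22 and 0.14 in rtTA. It was 1.92 ± 0.33 higher in rtTA-Dmrt5 (adjusted p = 0.00323), so the lines already differed in it in the arrays labelled -Dox. Among arrays labelled +Dox at day 7 the line difference was -0.61 ± 0.33 (adjusted p = 0.287). In bulk RNA, fewer cells of a type and less RNA per cell cannot be told apart.

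At day 7 without Dox, 5 of the 8 genes were lower in rtTA-Dmrt5 than in rtTA, in the comparison of the inducible line with its parent among arrays given no Dox by their labels. These were Lss and Cyp51, the enzymes that make lanosterol and then demethylate it, Idi1, which isomerises the isoprene unit, Fdft1, which makes squalene, and Sqle, which oxidises it. Of the 20 probe sets, 8 were lower and 0 higher, where 18.7% of all probe sets were called and 9.95% were called lower. Among probe sets with a signal of at least 8, 14.7% were lower, and 15.6% of all genes had a lower probe set. The groups did not overlap in 16 of the 20, against 60% of all probe sets. The median change of the 20 was -0.23, against -0.0014 over all probe sets.

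**Figure D1:**
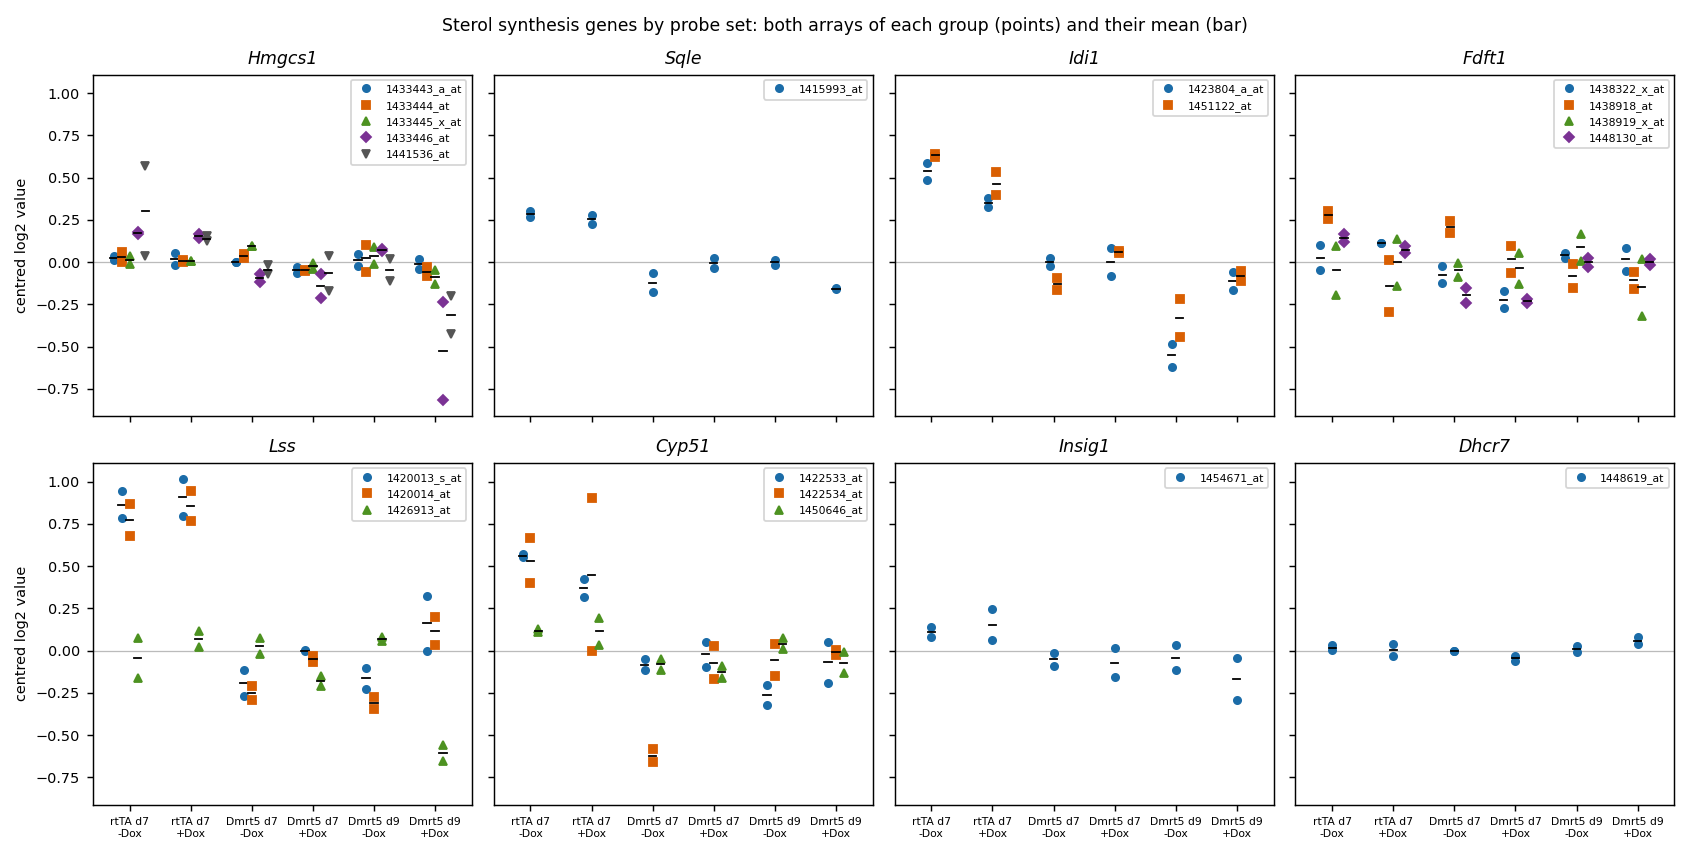
Values of every probe set of the 8 genes, as the log2 difference from that probe set's own median (y axis), on the 12 arrays by group (x axis); each point is 1 array. In 9 of the 20 probe sets the 4 rtTA arrays lie above all 8 rtTA-Dmrt5 arrays, which 6.59% of all probe sets show.

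Lss, the cyclase that closes oxidosqualene into lanosterol, separated the lines most clearly. Its probe set 1420013_s_at stood at 0.78 and 0.94 in rtTA labelled -Dox, at 0.80 and 1.02 in rtTA labelled +Dox, and at -0.27 and -0.11 in rtTA-Dmrt5 at day 7 labelled -Dox. It stood at -0.0044 and 0.00093 in rtTA-Dmrt5 at day 7 labelled +Dox, at -0.10 and -0.23 at day 9 labelled -Dox, and at 0.32 and -0.00093 at day 9 labelled +Dox. All 4 rtTA arrays were high, and the highest rtTA-Dmrt5 array, at 0.32, lay well below the lowest rtTA array, at 0.78. Without Dox the change was -1.05 ± 0.14, or 2.07-fold lower (adjusted p = 0.000769). Lss 1420014_at followed it closely, with 0.68 and 0.87 in rtTA labelled -Dox against -0.29 and -0.21 in rtTA-Dmrt5 at day 7, a change of -1.02 ± 0.12 (adjusted p = 0.000349). The third probe set of Lss, 1426913_at, did not separate the lines without Dox. It stood at -0.16 and 0.072 in rtTA and at -0.019 and 0.073 in rtTA-Dmrt5. Its difference of 0.071 ± 0.11 missed the threshold (adjusted p = 0.724, 95% interval -0.18 to 0.32). All 3 had a signal of at least 8, and 2 of the 3 were called.

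Idi1, which makes dimethylallyl diphosphate from its isomer, was lower in rtTA-Dmrt5 on both of its probe sets. Idi1 1451122_at stood at 0.62 and 0.64 in rtTA labelled -Dox, at 0.53 and 0.40 in rtTA labelled +Dox, at -0.16 and -0.092 in rtTA-Dmrt5 at day 7 labelled -Dox, and at 0.056 and 0.067 in those labelled +Dox. At day 9 it stood at -0.45 and -0.22 without Dox and at -0.056 and -0.11 with Dox. The 4 rtTA arrays were the highest of the 12, and the day 9 arrays without Dox were the lowest. The change without Dox was -0.76 ± 0.11 (adjusted p = 0.00137), and that of Idi1 1423804_a_at was -0.54 ± 0.11 (adjusted p = 0.00743), from 0.49 and 0.59 to 0.022 and -0.022. The call of 1423804_a_at was lost without rtTA-Dmrt5 replicate 2 labelled -Dox, at -0.51 and adjusted p = 0.0563.

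Cyp51, the lanosterol demethylase, was lower on 2 of its 3 probe sets. Cyp51 1422533_at stood at 0.57 and 0.55 in rtTA labelled -Dox, at 0.43 and 0.32 in rtTA labelled +Dox, and between -0.32 and 0.053 in the 8 rtTA-Dmrt5 arrays, whose median was -0.11. The 4 rtTA arrays again lay above all others, and the change without Dox was -0.65 ± 0.12 (adjusted p = 0.00433). Cyp51 1422534_at had the largest change of the 20 probe sets, -1.15 ± 0.24 (adjusted p = 0.00838), from 0.40 and 0.66 to -0.58 and -0.66. Its 2 rtTA arrays labelled +Dox stood far apart, at 0.90 and -0.0047, so its rtTA values overlapped those of rtTA-Dmrt5. Its call was lost without rtTA replicate 2 labelled -Dox (-1.02, adjusted p = 0.0566) or without rtTA-Dmrt5 replicate 2 labelled -Dox (-1.11, adjusted p = 0.0554). Cyp51 1450646_at, the brightest of the 3 by signal class, missed the threshold at -0.20 ± 0.10 (adjusted p = 0.231; 95% interval -0.43 to 0.033).

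Sqle and Fdft1, the neighbours of Lss in the squalene steps, differed less. The single Sqle probe set, 1415993_at, stood at 0.27 and 0.30 in rtTA labelled -Dox, at 0.23 and 0.28 in rtTA labelled +Dox, and between -0.18 and 0.021 in the 8 rtTA-Dmrt5 arrays. Its lines did not overlap, and the change without Dox was -0.41 ± 0.095 (adjusted p = 0.0149). Fdft1 1448130_at stood at 0.12 and 0.17 in rtTA labelled -Dox and at -0.15 and -0.24 in rtTA-Dmrt5 at day 7, a change of -0.34 ± 0.095 (adjusted p = 0.0324). In rtTA-Dmrt5 its day 9 arrays, between -0.029 and 0.025, were nearer to the rtTA arrays than its day 7 arrays were. The other Fdft1 probe sets stood at -0.099 (1438322_x_at), -0.070 (1438918_at) and 0.0028 (1438919_x_at), none of them called. Neither the Sqle nor the Fdft1 call held without each single array. Sqle lost its call without rtTA replicate 1 (adjusted p = 0.0665), rtTA replicate 2 (0.0714) or rtTA-Dmrt5 replicate 2 (0.115) labelled -Dox, and Fdft1 lost its call without any one of the day 7 arrays of rtTA-Dmrt5 or the rtTA arrays labelled -Dox (adjusted p between 0.0547 and 0.186).

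Hmgcs1, Insig1 and Dhcr7 had no called probe set between the lines without Dox. Hmgcs1, the synthase that makes HMG-CoA, had 3 probe sets that stayed between -0.13 and 0.10 on all 12 arrays (1433443_a_at, 1433444_at and 1433445_x_at). Its probe set 1433446_at stood at 0.18 and 0.17 in rtTA and at -0.12 and -0.068 in rtTA-Dmrt5, a difference of -0.26 ± 0.16 (adjusted p = 0.312; 95% interval -0.63 to 0.097). Hmgcs1 1441536_at had a difference of -0.35 ± 0.17 (adjusted p = 0.196), and its rtTA arrays stood at 0.57 and 0.035, the first of them far above the rest. Without the second of these, rtTA replicate 2 labelled -Dox, it was called at -0.61 (adjusted p = 0.0315). Insig1, the sterol sensor that restrains SREBP, stood at 0.079 and 0.14 in rtTA and at -0.092 and -0.013 in rtTA-Dmrt5, a difference of -0.16 ± 0.13 (adjusted p = 0.442; 95% interval -0.44 to 0.12). Its 4 rtTA arrays, from 0.065 to 0.24, all lay above its 8 rtTA-Dmrt5 arrays, which ran from -0.29 to 0.030. Dhcr7, which makes the last reduction to cholesterol, ranged from -0.059 to 0.082 over all 12 arrays, with a difference of -0.020 ± 0.093 (adjusted p = 0.915; 95% interval -0.23 to 0.19).

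The same comparison was made among the arrays labelled +Dox, and was added after the first results had been seen. Its means come from other arrays, but its estimate of the spread is shared over all 12, so the calls in the comparisons with and without Dox are not independent. Of the 20 probe sets, 4 were lower in rtTA-Dmrt5 and 0 higher, where 14.6% of all probe sets were called and 6.81% were lower. The 4 were Lss 1420013_s_at at -0.91 ± 0.14 (adjusted p = 0.00153), Lss 1420014_at at -0.90 ± 0.12 (adjusted p = 0.000578), Idi1 1451122_at at -0.40 ± 0.11 (adjusted p = 0.0348) and Cyp51 1422533_at at -0.39 ± 0.12 (adjusted p = 0.0493). The change was below 0 in 19 of the 20, with a median of -0.25 against -0.011 over all probe sets, and the groups did not overlap in 17, against 55% of all. Sqle (-0.26, adjusted p = 0.106), Fdft1 1448130_at (-0.30, adjusted p = 0.0594) and Insig1 (-0.23, adjusted p = 0.301) missed the threshold. So did Lss 1426913_at, at -0.25 ± 0.11 (adjusted p = 0.191), whose groups did not overlap here. Only the Lss calls held without each single array. Idi1 1451122_at lost its call without any 1 of the 8 day 7 arrays (adjusted p between 0.0510 and 0.169). Cyp51 1422533_at lost its call without any 1 of those 8 or of the 2 day 9 arrays labelled -Dox (adjusted p between 0.0631 and 0.265).

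**Figure D2:**
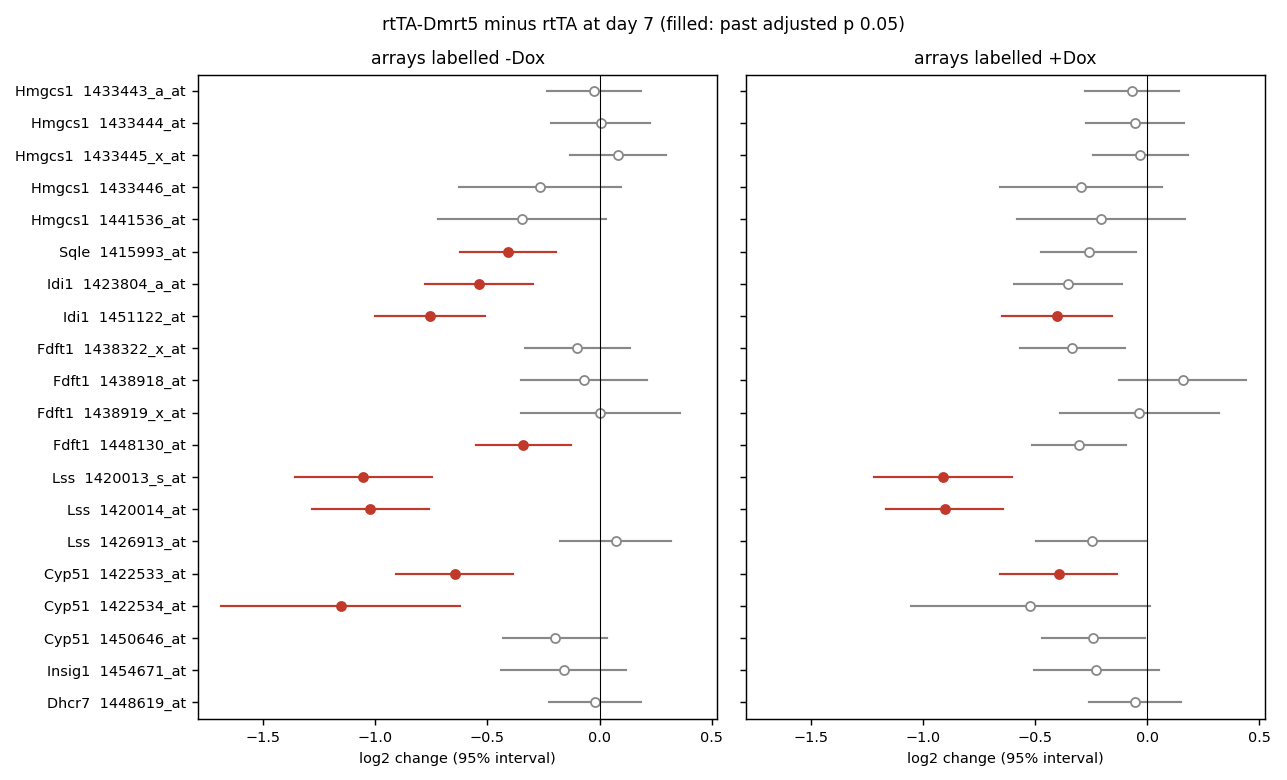
Log2 change of rtTA-Dmrt5 against rtTA at day 7 (x axis) for each of the 20 probe sets (y axis), among arrays labelled -Dox (left) and +Dox (right); bars are 95% intervals and filled points passed adjusted p 0.05. Lss 1420013_s_at and 1420014_at lie at -1.05 and -1.02 on the left and at -0.91 and -0.90 on the right. Lss 1426913_at lies at 0.071 on the left and at -0.25 on the right, and is filled on neither side.

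The rest of the pathway was taken from a list of 15 other enzymes of sterol and isoprenoid synthesis, of which 12 were analysed here. They are called the other sterol enzymes. Without Dox, 8 of the 12 were lower in rtTA-Dmrt5 and 1 was higher, where 15.6% of all genes had a lower and 15.2% a higher probe set, and the median of their gene means was -0.41. The largest changes were in Hsd17b7, a sterol ketoreductase, which was lower on 3 of 4 probe sets, between -0.59 and -0.81, and in the mevalonate kinase Mvk, which was lower by -0.62 ± 0.13 and -0.71 ± 0.14 on its probe sets (adjusted p = 0.00982 and 0.00721). Ggps1, an isoprenoid synthase counted in this list though off the route to squalene, was lower on 3 of 4 probe sets, between -0.42 and -0.65. Msmo1, the sterol methyl oxidase, was higher by 0.58 ± 0.16 on 1459627_at (adjusted p = 0.0289), while its other probe set differed by -0.23 and was not called. Of later enzymes of the pathway, Ebp was lower by -0.51 ± 0.11 (adjusted p = 0.0123) and Nsdhl by -0.46 ± 0.10 (adjusted p = 0.00994). The called probe sets of the other 3 lower genes lay between -0.38 and -0.45. With Dox, 5 of the 12 were lower and 0 higher, where 11% of all genes had a lower probe set (Ebp, Hsd17b7, Mvd, Mvk and Pmvk).

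Of 12 measured genes of SREBP control and sterol uptake, 3 were higher in rtTA-Dmrt5 without Dox and 1 was lower, with a median of 0.052, against 15.2% of all genes higher and 15.6% lower, which is near the background. Srebf1, which encodes the SREBP-1 factors, was higher by 0.78 ± 0.10 (adjusted p = 0.000864), while Srebf2, whose product is the main activator of sterol synthesis genes, stood at -0.16 ± 0.13 and -0.14 ± 0.099 on its probe sets and was not called. The carrier gene Stard4 was lower by -0.73 ± 0.15 and -0.58 ± 0.12 on 2 of its 3 probe sets (adjusted p = 0.00906 and 0.00794). Vldlr, a lipoprotein receptor, was higher by 0.51 ± 0.13 on 1435893_at (adjusted p = 0.0228). Its other probe sets differed by -0.040 to 0.39 and none was called. Npc2, a lysosomal sterol carrier, was higher by 0.38 ± 0.099 and 0.40 ± 0.096 on 2 probe sets (adjusted p = 0.0243 and 0.0172). Its others, at -0.15 and 0.61, were not called. Of 8 measured genes of sterol efflux, esterification and oxysterols, 4 were higher and 0 lower, with a median of 0.47, against the same 15.2% and 15.6%. They were the hydroxylase Cyp27a1 (1.94 ± 0.16, adjusted p = 5.8e-05), the exporter Abca1 (1.35 ± 0.17, adjusted p = 0.000569), the hydroxylase Cyp46a1 (1.11 ± 0.13, adjusted p = 0.000436) and the exporter Abcg4 (0.80 ± 0.16, adjusted p = 0.00685). Abca1, Abcg4 and Cyp27a1 were each called on 1 probe set among several. Between the lines with Dox the median of these 8 genes was nearer to 0, at 0.18. Even so, 3 of them were called higher there (Abca1, Cyp27a1 and Cyp46a1) and 1 lower (Abcg1). For Dox at day 9 in rtTA-Dmrt5 the median of the 8 was -0.32, with 1 called higher (Abca1) and 2 lower (Abcg4 and Cyp27a1).

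**Figure D3:**
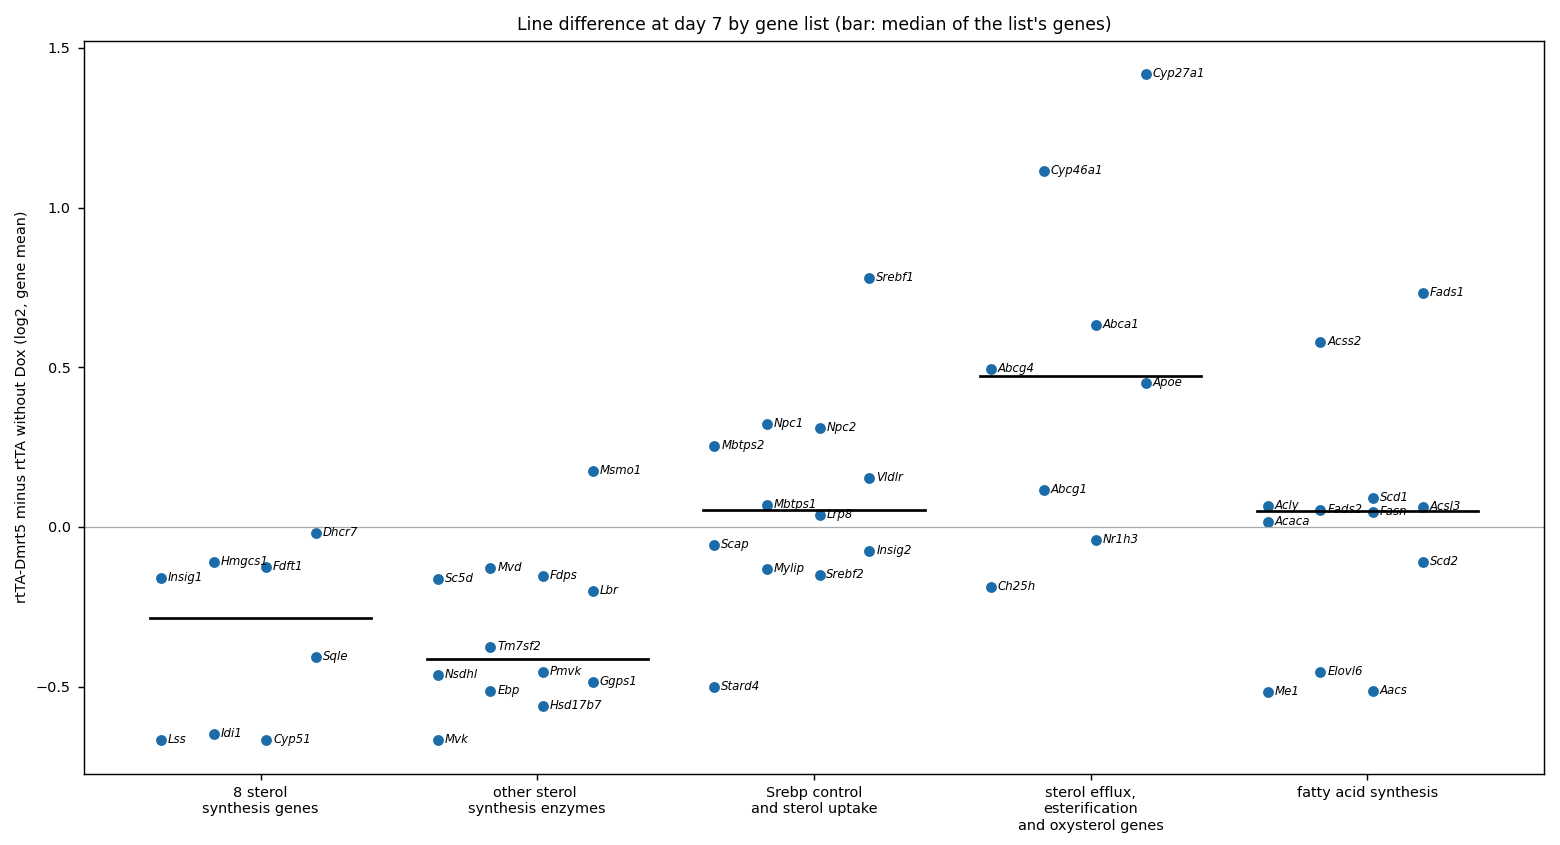
Log2 change of rtTA-Dmrt5 against rtTA at day 7 without Dox (y axis) for each measured gene, as the mean of its probe sets, by gene list (x axis); bars mark the median of each list. The medians of the efflux list at 0.47 and of the other sterol enzymes at -0.41 lie on opposite sides of 0.

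Cell type markers and RNA controls also differed between the lines, and their part in these results was not tested. Of 8 markers of undifferentiated ES cells, 7 were lower in rtTA-Dmrt5 without Dox and 1 (Klf4) was higher, with a median of -2.20; their mean lay between 0.57 and 0.66 in the 4 rtTA arrays and between -0.98 and -0.41 in the rtTA-Dmrt5 arrays of day 7. Of 7 mesoderm and endoderm markers measured, 4 were higher and 1 lower, with array means between -1.22 and -0.80 in rtTA and between -0.12 and 0.44 in rtTA-Dmrt5 at day 7. Of 8 surface epithelium markers, 4 were higher and 3 lower, of 10 neuronal markers 5 were lower and 1 higher, and of 7 cell cycle genes 4 were lower. Of 8 neural progenitor markers 4 were lower and 2 higher, and of 7 glia markers 3 were higher and 1 lower. Of all genes, 15.2% had a higher and 15.6% a lower probe set in this comparison. The difference between the 3′ and 5′ probe sets of Actb, which moves with RNA integrity and amplification, lay between -0.37 and -0.20 in the rtTA arrays and between -0.13 and 0.065 in the rtTA-Dmrt5 arrays of day 7. Since the values are centred, no marker could be shown to be absent.

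At day 7 none of the 8 genes had a called Dox response in either line. In rtTA-Dmrt5, 0 of the 20 probe sets were called by limma, where 3.05% of all were. An unadjusted p under 0.05 was found in 1 of the 20, against 6792 of all 45037 probe sets. That was Cyp51 1422534_at, which stood at -0.58 and -0.66 without Dox and at 0.025 and -0.17 with it, a difference of 0.55 ± 0.24 (adjusted p = 0.313). The other differences lay between -0.21 for Lss 1426913_at and 0.20 for Lss 1420014_at. For Sqle the difference was 0.12 ± 0.095, with a 95% interval of -0.096 to 0.33. In rtTA, 0 of the 20 and 0% of all probe sets were called by limma. There 1 of the 20, against 2323 of all 45037, had an unadjusted p under 0.05, namely the dim Fdft1 1438918_at (-0.42 ± 0.13, adjusted p = 0.947). The test of the difference between the lines in their Dox response called 0 of 20 with limma, against 1.04% of all. In it 1 of the 20, against 5466 of all 45037 probe sets, had an unadjusted p under 0.05. That was Idi1 1451122_at, at 0.36 ± 0.16 (adjusted p = 0.399). Of the other lists, Vldlr 1434465_x_at (-0.70 ± 0.15), Vldlr 1435893_at (-0.67 ± 0.13) and Abcg1 1423570_at (-0.64 ± 0.12) were called lower with Dox in rtTA-Dmrt5 at day 7. Me1 1430307_a_at was called higher (0.52 ± 0.11).

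At day 9 in rtTA-Dmrt5, 3 of the 8 genes had probe sets that changed with Dox, in both directions. Of the 20 probe sets, 2 were higher and 2 lower, where 18.3% of all were called, 10.3% higher and 7.95% lower; the groups did not overlap in 12 of the 20, against 56.5% of all. The share of 4 in 20 is near that background. The median change was -0.025, against -0.022 over all.

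Idi1 1423804_a_at rose from -0.62 and -0.49 to -0.060 and -0.17, a change of 0.44 ± 0.11 (adjusted p = 0.0201). Its other probe set, 1451122_at, stood at -0.45 and -0.22 without Dox and at -0.056 and -0.11 with it (0.25 ± 0.11, adjusted p = 0.156). On both probe sets all 8 rtTA-Dmrt5 arrays lay below the 4 rtTA arrays, with or without Dox. The Idi1 call was lost without rtTA-Dmrt5 day 9 replicate 1 labelled -Dox (0.37, adjusted p = 0.127) or replicate 1 labelled +Dox (0.39, adjusted p = 0.0951), and with replicate number as a block (adjusted p = 0.0517).

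Lss probe sets were called in opposite directions. Lss 1426913_at stood at 0.058 and 0.078 without Dox and at -0.65 and -0.56 with Dox, where the 2 arrays labelled +Dox were the lowest of all 12, and fell by 0.67 ± 0.11 on the log2 scale (adjusted p = 0.00308). Lss 1420014_at stood at -0.28 and -0.34 without Dox and at 0.20 and 0.031 with Dox, and rose by 0.43 ± 0.12 (adjusted p = 0.031). Lss 1420013_s_at stood 0.32 ± 0.14 higher and was not called (adjusted p = 0.138). The fall of 1426913_at held without each single array. The rise of 1420014_at was lost without either day 9 array labelled -Dox (adjusted p = 0.0943 and 0.126) or without replicate 1 labelled +Dox (0.34, adjusted p = 0.151).

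Hmgcs1 1433446_at stood at 0.068 and 0.074 without Dox and at -0.82 and -0.24 with Dox, and fell by 0.60 ± 0.16 on the log2 scale (adjusted p = 0.0295). Its 2 arrays labelled +Dox lay far apart, and without the lower, replicate 1, the change was -0.31 (adjusted p = 0.128); it was also lost without either array labelled -Dox (adjusted p = 0.112 and 0.10). The other 4 Hmgcs1 probe sets differed by -0.022 to -0.26 and none was called. Sqle stood at -0.015 and 0.015 without Dox and at -0.16 and -0.16 with it (-0.16 ± 0.095, adjusted p = 0.291), and Cyp51, Fdft1, Insig1 and Dhcr7 differed by -0.24 to 0.19 with none called.

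**Figure D4:**
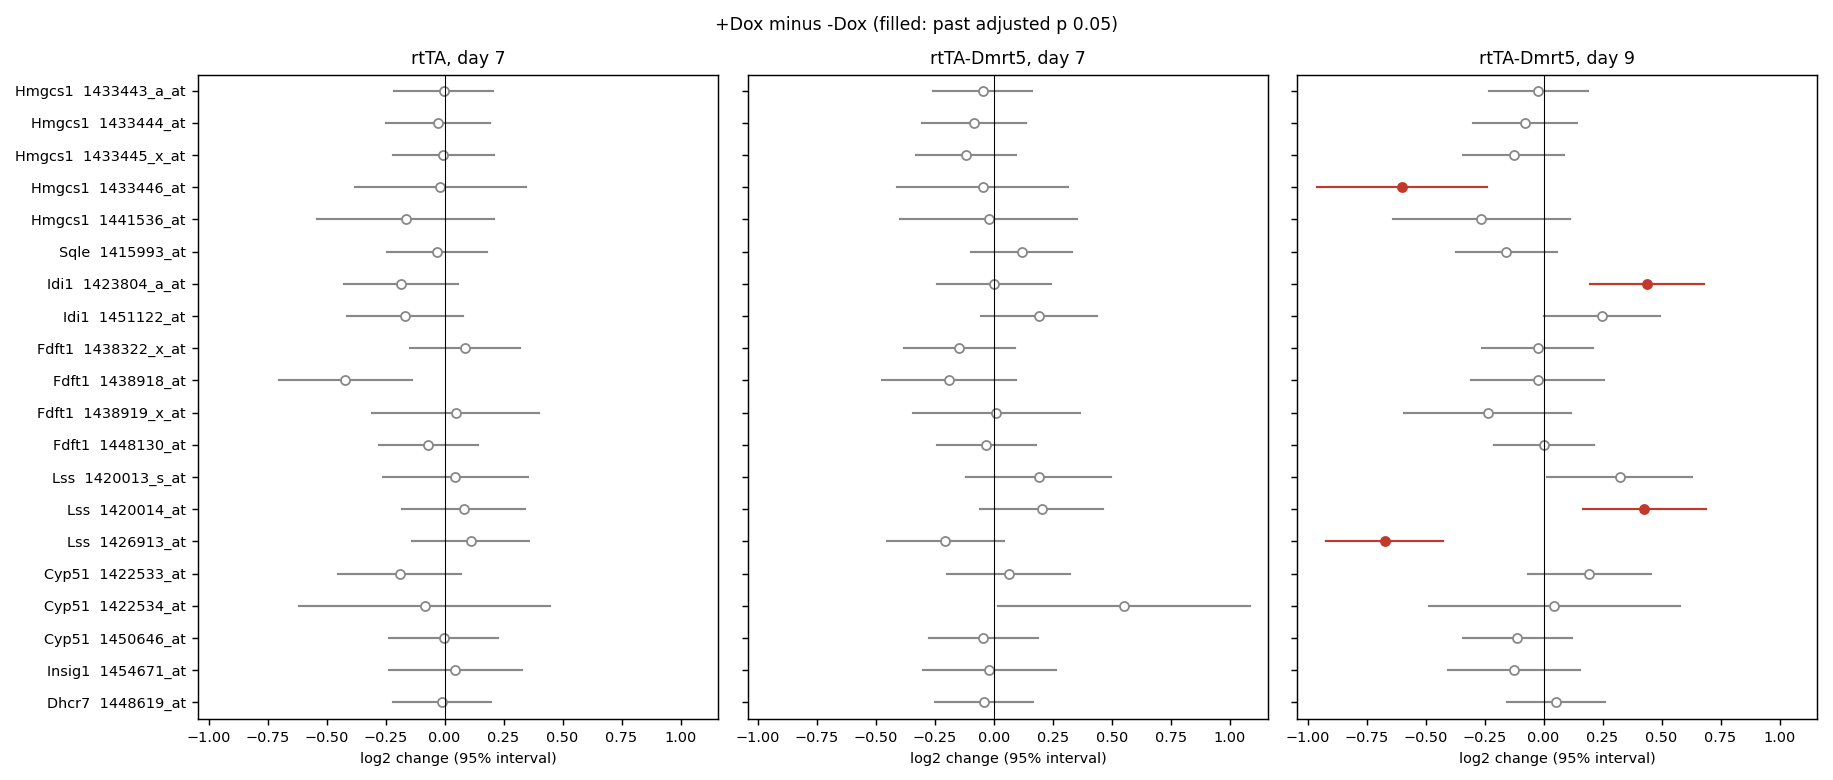
Log2 change with Dox (x axis) for each of the 20 probe sets (y axis) in rtTA at day 7, rtTA-Dmrt5 at day 7 and rtTA-Dmrt5 at day 9; bars are 95% intervals and filled points passed adjusted p 0.05. Filled points appear at day 9 alone, 2 above 0 and 2 below, and for Lss on both sides.

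The test of the difference between the days in the Dox response called 0 of the 20 with limma, where 0.639% of all were called. In it 3 of the 20 had an unadjusted p under 0.05, against 6564 of all 45037 probe sets. The share of 3 in 20 is near that background. Among the 3 were Lss 1426913_at (-0.47 ± 0.16, adjusted p = 0.209) and Idi1 1423804_a_at (0.44 ± 0.15, adjusted p = 0.226). Hmgcs1 1433446_at (-0.55 ± 0.23, adjusted p = 0.307) was the other. Over all probe sets, the calls at day 9 and their lack at day 7 therefore do not show that the days differ. Among probe sets with a signal of at least 8 alone, where fewer tests were adjusted for, Lss 1426913_at (adjusted p = 0.0377) and Idi1 1423804_a_at (adjusted p = 0.0392) were called for this difference. Hmgcs1 1433446_at was called without rtTA-Dmrt5 day 9 replicate 2 labelled +Dox, at -0.84 (adjusted p = 0.0413).

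Of the other sterol enzymes, 1 of 12 was higher with Dox at day 9 (Sc5d, 0.43 ± 0.12 on 1 of 3 probe sets, adjusted p = 0.0367) and 2 were lower, where 18.6% of all genes had a higher and 12.4% a lower probe set. The lower ones were Ggps1, on 1 of 4 probe sets (-0.53 ± 0.14, adjusted p = 0.0303), and Msmo1 1459627_at (-1.25 ± 0.16, adjusted p = 0.00084). Msmo1 1423078_a_at stood at -0.20 ± 0.096 and was not called (adjusted p = 0.177). Of the SREBP control and uptake genes, 5 of 12 were higher and 3 lower. The largest changes were in Stard4 (1.11 ± 0.15 on 1 of 3 probe sets, adjusted p = 0.00134), Mylip, which marks lipoprotein receptors for breakdown (0.99 ± 0.23, adjusted p = 0.0165), Vldlr (lower on 4 probe sets, between -0.55 and -0.86), Npc2 (-0.71 ± 0.21 on 1455768_at, adjusted p = 0.0414), the lipoprotein receptor Lrp8 (-0.66 ± 0.13 on 1440882_at, adjusted p = 0.00732) and the escort Scap (0.61 ± 0.11 on 1433520_at, adjusted p = 0.00568). The other probe sets of Npc2 differed by -0.11 to 0.016, those of Lrp8 by -0.20 and 0.0076 and that of Scap by 0.20, none of them called. Those of Vldlr, at -0.028 and -0.40, were not called either. Srebf1 (0.28 ± 0.10, adjusted p = 0.0912) and Srebf2 (0.25 ± 0.13 and -0.16 ± 0.099) were not called. Cell type markers differed too, and their part in the result was not tested: 7 of 8 surface epithelium markers were higher, 7 of 10 neuronal markers lower and 5 of 7 cell cycle genes higher. Of 7 mesoderm and endoderm markers 5 were higher, with a median of 0.69, and of 8 undifferentiated ES cell markers 4 were higher, their mean lying between -0.23 and -0.15 without Dox and between 0.32 and 0.38 with Dox. The mean of the epithelium markers lay between -0.46 and -0.29 without Dox and between 0.61 and 0.78 with Dox, and that of the neuronal markers between 0.34 and 0.37 without and between -0.42 and -0.34 with Dox. The difference between 3′ and 5′ Actb probe sets was 0.21 ± 0.022 (SD, n = 2) with Dox and -0.024 ± 0.041 (SD, n = 2) without, and hybridisation controls averaged -0.72 with Dox and 0.091 without.

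Between day 7 and day 9 without Dox, Idi1 was the only one of the 8 genes with a called change in rtTA-Dmrt5. Of the 20 probe sets, 1 was lower and 0 higher, where 7.65% of all were called and 3.37% lower. Idi1 1423804_a_at fell from 0.022 and -0.022 to -0.62 and -0.49, by 0.55 ± 0.11 on the log2 scale (adjusted p = 0.0134), and the groups did not overlap. Its other probe set differed by -0.20 ± 0.11 (adjusted p = 0.334). The call was lost without any of rtTA-Dmrt5 day 7 replicates 1 and 2 (adjusted p = 0.0960 and 0.0700) or day 9 replicate 1 (adjusted p = 0.0981), all labelled -Dox. Cyp51 1422534_at differed by 0.57 ± 0.24 (adjusted p = 0.204) and was called, at adjusted p = 0.0330, without either rtTA array labelled +Dox. None of the 12 other sterol enzymes was called by limma. In the remaining lists, Vldlr was higher at day 9 on 3 probe sets, between 0.59 and 0.97, and Scd1 1415965_at was lower (-0.76 ± 0.16). Between these groups 6 of 8 undifferentiated ES cell markers were higher at day 9 (median 0.82), 6 of 10 neuronal markers were higher (median 0.67) and 2 of 8 surface epithelium markers, Cdh1 and Cldn6, were lower; their part in the result was not tested. This comparison, the Dox responses and the line difference share the rtTA-Dmrt5 arrays labelled -Dox, so their changes are not independent of each other.

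Over the 12 arrays, the 8 genes varied to unlike extents, which is given as a description over arrays that share lines and groups. The mean of a gene's probe sets ranged over 1.15 for Idi1, 0.85 for Lss, 0.80 for Cyp51, 0.54 for Insig1, 0.48 for Sqle, 0.45 for Hmgcs1, 0.28 for Fdft1 and 0.14 for Dhcr7. Pearson's r between a gene and the mean of the other 7 was 0.95 for Lss, 0.93 for Sqle, 0.85 for Cyp51, 0.82 for Idi1, 0.71 for Insig1, 0.62 for Hmgcs1, 0.56 for Fdft1 and 0.0079 for Dhcr7. The mean of the 8 genes stood at 0.24, 0.29, 0.23 and 0.22 in the rtTA arrays and between -0.12 and -0.049 in the 8 rtTA-Dmrt5 arrays, so that these r values follow the line. Within genes, the probe sets of Lss correlated at 0.99 for 1420013_s_at with 1420014_at but at 0.12 and 0.094 with 1426913_at, and those of Idi1 at 0.94. The 2 bright Fdft1 probe sets correlated at 0.76.

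The genes whose pattern was most like the mean of the 8, by Pearson's r over the 12 arrays, were Pim2 (0.99), Rcc2 (0.98), Mixl1 (0.98), Eras (0.98), Vrtn (0.98), Snhg3 (0.98), Fgf5 (0.97), Ube2n (0.97), Hsd17b7 (0.97) and Ufd1 (0.97). Hsd17b7, of the sterol enzymes, is the only gene of the pathway lists among them. Their changes between the lines without Dox ran from -0.36 for Ufd1 to -5.56 for Vrtn, all lower in rtTA-Dmrt5. The pattern they were chosen by is itself higher in rtTA, so this direction follows from the choice.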

How the data were processed

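Affymetrix arrays measured RNA of 12 samples of differentiating mouse ES cells; per the labels' protocols, 5 ng of total RNA was amplified with a NuGEN Ovation kit. The authors deposited values made with RMA, per the submitters' processing notes (version not given in the sources used here), and they are taken as log2, larger for more RNA. Of 45101 probe sets, 64 controls were left out; each deposited row is centred on its median, which no source mentions, so exact levels are unknown, and the number of arrays limits the precision. Names come from the platform annotation: 34945 probe sets had 1 symbol, 932 several and 9160 none. The spacing of the numbers gave each probe set a class of median signal.

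limma 3.58.1 in R 4.3.3 fitted a mean per group over all arrays (6 residual and 3.92 prior degrees of freedom), with Benjamini-Hochberg adjustment over 45037 probe sets within each comparison, two-sided. Samples were grouped by the line, day and Dox in the labels. Every probe set of the 8 genes was described. Genes of the other lists past the threshold were named mainly for the lines without Dox and for Dox at day 9. At most 6 a list and comparison were named, those with the largest change of a probe set. Srebf1 and Srebf2 were given for these comparisons whether called or not. A list gene left unnamed may still have been called in a comparison. The members and lists were chosen with earlier results of these data known. The fit was tested on simulated data. Alternatives were 2 other centrings, the replicate number as a block, only the groups compared, signal of at least 8, array weights, robust eBayes, gene means and each array left out. Python 3.11.15, pandas 2.3.3 and matplotlib 3.10.9 were also used.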

Additional observations from a re-analysis of the deposited data

How the results depend on the processing

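Counts of the 8 genes with a called probe set moved by over 1.5 times as follows. With only the groups compared in the fit, the count went from 3 to 1 for Dox at day 9, from 1 to 0 for day 9 against day 7, from 5 to 3 for the lines without Dox and from 3 to 1 for the lines with Dox. Calls over all probe sets ran, over the alternatives on the full table, from 496 to 2666 for Dox at day 7 in rtTA-Dmrt5 (1372 in the report), from 3426 to 8220 at day 9 (8230), from 0 to 1 in rtTA (0), from 173 to 648 for the difference between lines (468), from 0 to 625 for that between days (288), from 1210 to 4418 for day 9 against day 7 (3447), from 4100 to 10084 for the lines without Dox (8408) and from 3855 to 7153 with Dox (6595). With gene means in place of probe sets, the day 9 count was 1. With probe sets of a signal of at least 8, fewer tests were adjusted for, and the count was 2 for the difference between days, 2 for day 9 against day 7 and 5 for the lines with Dox. For the lines with Dox it was 1 with arrays centred on polyA controls, which moved all changes by 0.053 there and by 0.10 in the difference between lines. Leaving out each array in turn gave 1 to 3 genes for Dox at day 9, 0 to 1 for the difference between days, 0 to 2 for day 9 against day 7, 3 to 5 for the lines without Dox and 1 to 3 with Dox; the count for the lines without Dox was 3 without rtTA replicate 1 or rtTA-Dmrt5 replicate 2 labelled -Dox, and for Dox at day 9 it was 1 without replicate 1 of either group. The cause of these moves was otherwise not tested.

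Replicate numbers did not pair the arrays: deviations of same-numbered arrays correlated at 0.028, -0.061 and 0.14 within a line and day. With the replicate block, the count was 4 for the lines without Dox, 2 for Dox at day 9 and 1 for the lines with Dox. No called change of the 8 genes turned its sign under any alternative fitted to probe sets. Gene means stand apart from this: as the mean of its probe sets, Lss differed by 0.025 with Dox at day 9. Calls kept under every alternative fitted to probe sets were Lss 1420013_s_at and 1420014_at in both line comparisons and Lss 1426913_at at day 9. Idi1 1451122_at and Cyp51 1422533_at kept theirs in the same way between the lines without Dox. Cyp51 1422533_at and 1422534_at were not in the fit of probe sets with a signal of at least 8.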

Other observations

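Of 12 fatty acid synthesis genes measured, which share SREBP control with the sterol enzymes, 2 were higher and 3 lower in rtTA-Dmrt5 at day 7 without Dox, with a median of 0.051. Of all genes, 15.2% had a higher and 15.6% a lower probe set, so these counts are near the background. The desaturase Fads1 was higher by 0.41 ± 0.092 and 1.05 ± 0.14 (adjusted p = 0.0128 and 0.000785), and Aacs, which activates acetoacetate for lipid synthesis, was lower by -0.99 ± 0.11 and -0.47 ± 0.12 on 2 of 3 probe sets (adjusted p = 0.00027 and 0.0213). Acss2, which makes acetyl-CoA from acetate, was higher by 0.92 ± 0.11 and 0.67 ± 0.099 on 2 of 3 probe sets (adjusted p = 0.000407 and 0.00158). The elongase Elovl6 was lower by -0.69 ± 0.14 on 1417403_at (adjusted p = 0.00682) and malic enzyme Me1 by -0.66 ± 0.11 on 1430307_a_at (adjusted p = 0.00268). Elovl6 1417404_at stood at -0.059 ± 0.11, Elovl6 1442656_at at -0.61 ± 0.19 and Me1 1416632_at at -0.38 ± 0.16, none of them called. With Dox at day 9, 1 of the 12 was higher and 3 lower, where 18.6% of all genes had a higher and 12.4% a lower probe set. Fads1 1440444_at was then lower by -1.17 ± 0.14 (adjusted p = 0.000608) while Fads1 1423680_at stood at -0.054 ± 0.092. Me1 was higher on both probe sets, by 0.79 ± 0.16 and 0.44 ± 0.11 (adjusted p = 0.00825 and 0.0194). Scd2 1415823_at was lower by -0.76 ± 0.16 (adjusted p = 0.00949) while Scd2 1415822_at stood at 0.025 ± 0.093 and 1415824_at at 0.31 ± 0.21. Elovl6 1417404_at was lower by -0.36 ± 0.11 (adjusted p = 0.0448). Elovl6 1417403_at stood the other way, at 0.33 ± 0.14, and 1442656_at at 0.029 ± 0.19, neither of them called. As in Lss and Msmo1, probe sets named for 1 gene differed at day 9; the cause was not tested.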
